A study of Homo sapiens with 5 samples.

Results

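RAG1, RAG2, PTCRA and IL7R mark stages of early thymocyte development, and their neighbourhoods were examined in MOLT-4, a human cell line long in culture that derives from T cell acute lymphoblastic leukaemia (T-ALL). The cells were grown in standard medium with no further treatment named in the labels. They were profiled by CUT&RUN, in which micrococcal nuclease fused to protein A/G is brought to an antibody's target and the DNA it cuts free is sequenced. The antibodies were against H3K4me3, trimethylation of histone H3 found at promoters, against RUNX1, a DNA-binding regulator of blood formation, and against a target that the labels call SMA4, with 1 library each. The SMA4 name is used as given. The titles of 2 further samples call them Input, they are grouped here as IgG, and they were not analysed. The members were all peaks with at least 1 bp inside 3 windows of the hg19 genome. RAG1 and RAG2 share the window from 36.52 to 36.70 Mb of chromosome 11 (180 kb). PTCRA has the window from 42.87 to 42.91 Mb of chromosome 6 (40 kb), and IL7R the window from 35.82 to 35.90 Mb of chromosome 5 (80 kb). These windows held 34 of 51392 peaks on chromosomes 1 to 22 and X. They were 24 of 36736 RUNX1 peaks, 6 of 13181 H3K4me3 peaks and 4 of 1475 SMA4 peaks.

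RAG1 and RAG2 are the subunits of the recombinase that cuts and joins the gene segments of T cell and B cell receptors. In thymocytes both are expressed while the T cell receptor beta chain genes are rearranged, and again while the alpha chain genes are. PTCRA encodes the invariant pre-T alpha chain, which pairs with a newly made beta chain to form the pre-T cell receptor. IL7R encodes the alpha chain of the interleukin-7 receptor, which carries survival and growth signals in early thymocytes, falls at the CD4+ CD8+ stage and returns in mature T cells. RUNX proteins bind DNA as partners of CBFB and are required in the thymus for several of these steps.

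Each antibody had 1 library, so no value has a replicate and no difference was tested. The lists give the position of each peak and no height, p-value or read depth, so peak width is the one measure of each peak. Per the file headers, SMA4 peaks were called by a different pipeline and point to a folder named for a different batch, so target, batch and pipeline cannot be told apart. The absence of a peak says that none passed the authors' threshold, not that the target was absent. No hg19 annotation was at hand, so peaks are given by window and position and were not assigned to a gene, exon or promoter. The windows are wider than the genes. In the RefSeq gene order TRAF6 lies before RAG1 and IFTAP after RAG2. PTCRA lies between PEX39 and CNPY3, and IL7R between SPEF2 and CAPSL. A peak in a window therefore need not belong to the gene that names it.

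The sequences before the starts of the 4 genes are shown first to show which of them hold the letters that RUNX1 and other T cell factors are known to bind. They are the 250 bases upstream of each gene's start in RefSeq, in the direction of transcription, on build GRCh38.p14. All 4 genes had an entry. Their coordinates belong to another build than the peaks, so they were not placed against them. RAG1 (chr11:36510103-36510352, plus strand), RAG2 (chr11:36598237-36598486, minus strand), PTCRA (chr6:42915803-42916052, plus strand) and IL7R (chr5:35856641-35856890, plus strand) follow. Capitals mark the RUNX core TGTGGT, read on either strand, and the E-box letters CANNTG bound by E proteins.
RAG1: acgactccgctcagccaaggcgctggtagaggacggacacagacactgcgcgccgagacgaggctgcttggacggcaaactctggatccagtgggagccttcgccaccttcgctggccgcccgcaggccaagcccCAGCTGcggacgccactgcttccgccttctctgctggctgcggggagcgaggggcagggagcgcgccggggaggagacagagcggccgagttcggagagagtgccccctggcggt
RAG2: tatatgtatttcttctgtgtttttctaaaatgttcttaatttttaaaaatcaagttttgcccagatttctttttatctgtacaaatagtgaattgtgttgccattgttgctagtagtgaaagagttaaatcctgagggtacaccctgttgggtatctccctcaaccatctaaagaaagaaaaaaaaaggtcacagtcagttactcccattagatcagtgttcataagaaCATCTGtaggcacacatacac
PTCRA: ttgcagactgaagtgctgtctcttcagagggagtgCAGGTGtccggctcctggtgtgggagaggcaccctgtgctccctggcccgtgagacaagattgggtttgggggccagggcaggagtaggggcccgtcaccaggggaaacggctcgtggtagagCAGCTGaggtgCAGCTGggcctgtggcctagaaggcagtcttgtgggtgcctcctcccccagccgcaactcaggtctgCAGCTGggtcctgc
IL7R: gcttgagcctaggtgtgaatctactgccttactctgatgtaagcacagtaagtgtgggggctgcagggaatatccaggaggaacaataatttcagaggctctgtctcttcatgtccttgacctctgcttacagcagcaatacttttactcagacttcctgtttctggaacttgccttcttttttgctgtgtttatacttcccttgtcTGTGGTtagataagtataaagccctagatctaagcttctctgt

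The 4 sequences differ in the letters they hold. The RUNX core occurred in IL7R alone, once, beginning 43 bases before the start, and 11.0% of the 35116 RefSeq sequences of this length hold at least 1. PTCRA held 4 E-boxes, of which 3 read CAGCTG and 1 read CAGGTG, beginning 215, 92, 81 and 14 bases before the start. At least 4 E-boxes occur in 3.35% of all sequences. RAG1 and RAG2 held 1 E-box each (CAGCTG and CATCTG), as 61.8% of all sequences hold at least 1, and IL7R held none.

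IL7R held more ETS cores and more TATA letters than the other genes. The ETS core, GGAA or its complement TTCC, occurred 5 times in IL7R, once each in RAG1 and PTCRA and not in RAG2. Of all sequences, 92.7% hold at least 1, the median is 3, and 18.6% hold 5 or more. The GATA core, GATA or TATC, occurred 2 times each in IL7R and RAG2, a number reached by 19.3% of all sequences, and one of those in IL7R begins 35 bases before the start, just after the RUNX core. IL7R also held the letters TATAAA 29 bases before the start and their complement 60 bases before it, and 2.05% of all sequences hold 2 or more. RAG1 was 70.0% G and C, PTCRA 64.4%, IL7R 43.6% and RAG2 34.0%. The RAG1 entry spans 69.4 kb in RefSeq, so its sequence lies before the outermost annotated start, far from the coding exon. No match overlapped a match of another motif. These matches describe letters and are not binding sites.

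RUNX1 was present in all 3 windows, whereas H3K4me3 and SMA4 were each absent from one. The RAG1-RAG2 window held 12 RUNX1, 3 H3K4me3 and 2 SMA4 peaks. The PTCRA window held 4 RUNX1 and 3 H3K4me3 peaks and no SMA4 peak. The IL7R window held 8 RUNX1 and 2 SMA4 peaks and no H3K4me3 peak. Per 100 kb this came to 6.67 RUNX1 peaks in the RAG1-RAG2 window and 10.0 in each of the others. RUNX1 peaks filled 5.58% of the RAG1-RAG2 window, 11.8% of the PTCRA window and 6.56% of the IL7R window. H3K4me3 filled 1.79% of the RAG1-RAG2 window and 6.2% of the PTCRA window, and SMA4 filled 0.343% of the RAG1-RAG2 window and 0.542% of the IL7R window.

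**Figure D1:**
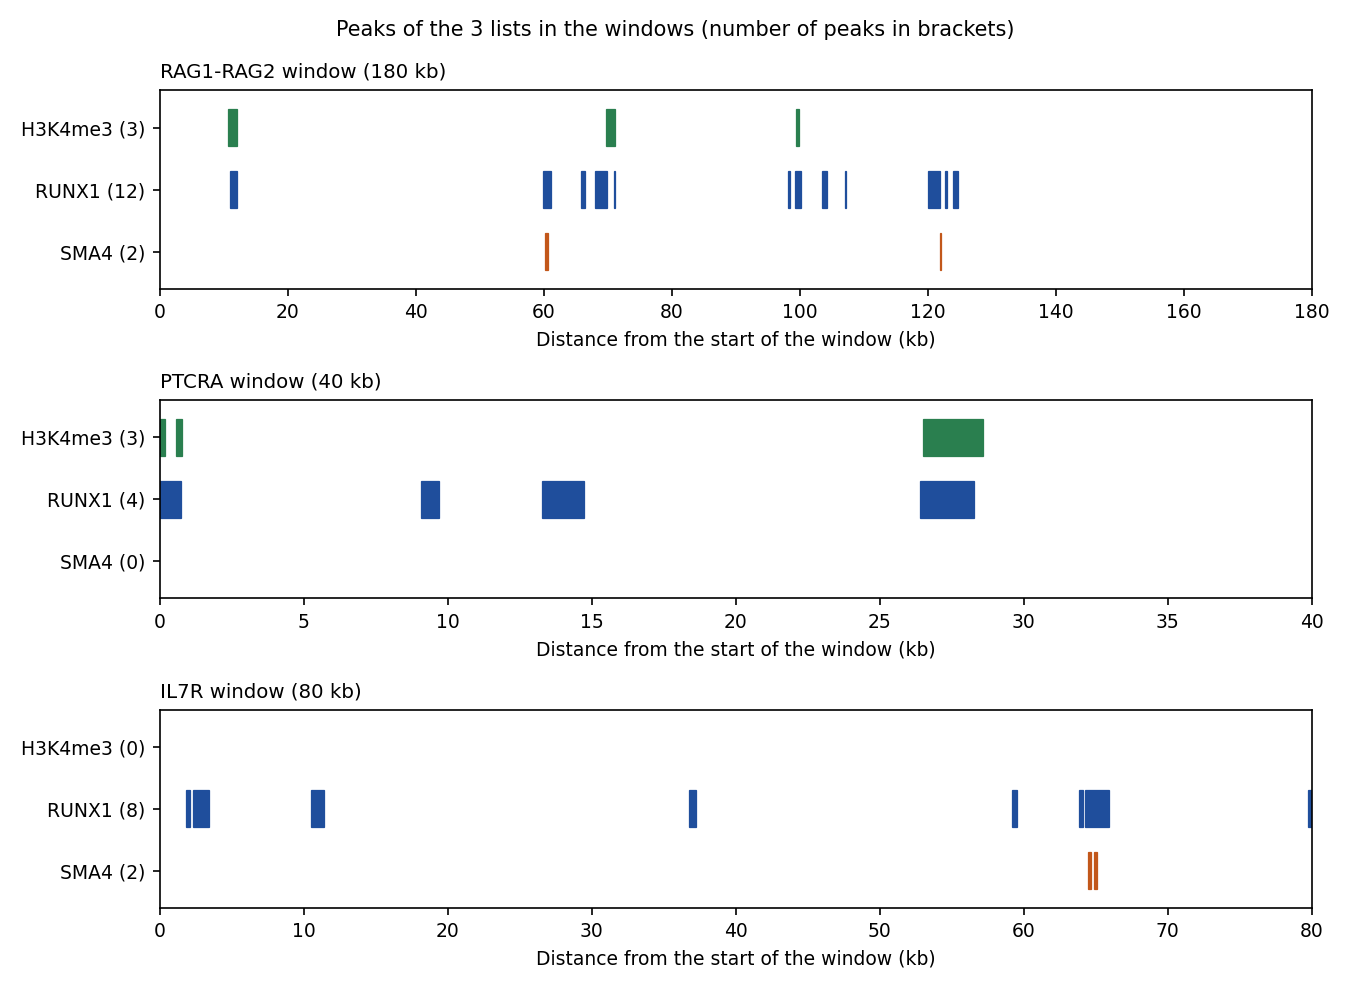
Peaks of H3K4me3, RUNX1 and SMA4 in the windows, drawn to scale by distance from the start of each window in kb and cut at its limits; numbers in brackets count peaks. The 12 RUNX1 peaks of the RAG1-RAG2 window lie in 3 groups and 1 single peak, and the IL7R window has no H3K4me3 peak.

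The windows were set beside all genome tiles of the same length, counted from the first base of each chromosome to its last peak. All 3 windows were among the tiles richer in RUNX1. The RAG1-RAG2 window had 12 RUNX1 peaks against a median of 1 in 16836 tiles of 180 kb, of which 2.58% held 12 or more and 52.5% held any. The PTCRA window had 4 against a median of 0 in 75800 tiles of 40 kb, of which 2.81% held 4 or more and 25.7% held any. The IL7R window had 8 against a median of 0 in 37894 tiles of 80 kb, of which 1.49% held 8 or more and 37.9% held any. Many tiles are empty, and among those with a peak of any list the shares with as many RUNX1 peaks were 4.74%, 10.5% and 3.78% for the RAG1-RAG2, PTCRA and IL7R windows. Neither set of tiles stands for genes expressed in T cells.

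**Figure D2:**
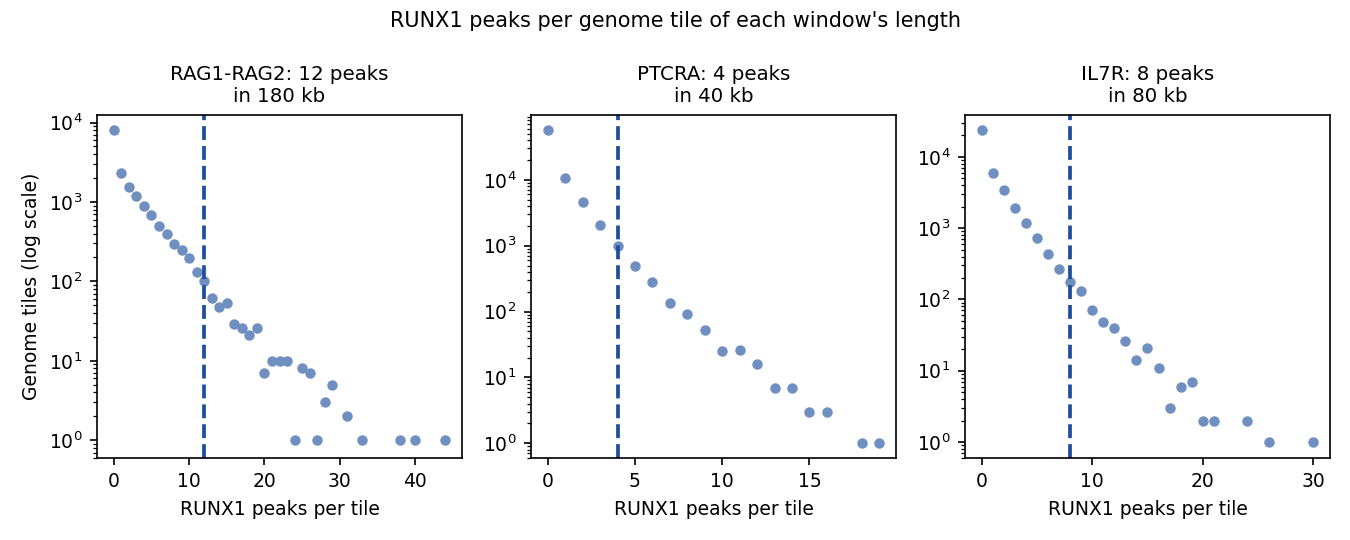
Number of genome tiles (log scale) by the number of RUNX1 peaks they hold, for tiles of 180, 40 and 80 kb; the dashed line marks the window's own count of 12, 4 and 8 RUNX1 peaks. Tiles with at least as many RUNX1 peaks made up 2.58%, 2.81% and 1.49%, and the richest tiles held 44, 19 and 30.

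H3K4me3 and SMA4 were read against the same tiles. At least 3 H3K4me3 peaks occurred in 10.6% of the 180 kb tiles and in 1.16% of the 40 kb tiles, and any H3K4me3 peak in 33.5% and 12.3% of them. Of the 3 in the PTCRA window, the first crosses its limit and lies 371 bp from the second. Counted by midpoint, that window held 2. Exactly 2 H3K4me3 peaks touched a further 1951 of the 75800 tiles of 40 kb. The absence of H3K4me3 from the IL7R window is the commoner state, found in 79.5% of 80 kb tiles, with the mark in the other 20.5%. Among the 563 such tiles with 8 or more RUNX1 peaks, however, 134 (23.8%) had no H3K4me3 peak, and 30 of these held SMA4. At least 2 SMA4 peaks, as in the RAG1-RAG2 and IL7R windows, occurred in 1.31% of 180 kb tiles and 0.491% of 80 kb tiles, and any SMA4 peak in 6.67% and 3.18% of them. The 2 in the IL7R window lie only 178 bp apart in the same RUNX1 peak, and are counted separately. The absence of SMA4 from the PTCRA window was shared by 98.3% of 40 kb tiles (1.68% held any), and by 1901 of the 2130 (89.2%) that had 4 or more RUNX1 peaks.

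RUNX1 peaks in the RAG1-RAG2 window fell into groups with long empty stretches between them. Peaks were joined by the ROSE method's default distance for stitching enhancers, which bridged gaps of up to 11660 bp in these windows. A region of 4 peaks ran from 36579982 to 36591155 (11.2 kb) and another of 4 peaks from 36618229 to 36627283 (9.05 kb). A region of 3 peaks ran from 36640102 to 36644764 (4.66 kb), and 1 peak stood alone near the start of the window. The second and the last region are 12818 bp apart, just beyond the joining distance. The first region held 1 H3K4me3 and 1 SMA4 peak, the second 1 H3K4me3 peak and the third 1 SMA4 peak. With 3875 bp in peaks, the first region held more peak sequence than 94.7% of the 20665 RUNX1 regions. The third, with 2926 bp, held more than 90.9%, and the second, with 2087 bp, more than 82.7%.

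The single RUNX1 peak, on chr11:36531002-36532149 (1148 bp), lay almost wholly on the first H3K4me3 peak of the window. That mark spans chr11:36530714-36532127 (1414 bp), and 98.1% of the RUNX1 peak and 79.6% of the mark are shared. No other RUNX1 peak lay within 47.8 kb after it. This pair is the part of the window farthest from the groups, 10.7 kb after its start.

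The first group began with a RUNX1 peak on chr11:36579982-36581102 (1121 bp) that contained a whole SMA4 peak. The SMA4 peak, on chr11:36580198-36580662, was 465 bp wide, the widest SMA4 peak of the 3 windows and wider than 91.5% of its list. Its centre lay 112 bp from that of the RUNX1 peak. A RUNX1 peak of 597 bp without either other target followed on chr11:36585850-36586446. The nearest H3K4me3 was 9.11 kb from the SMA4 peak.

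The group ended at the second H3K4me3 peak, which RUNX1 flanked and did not cover at its centre. The mark spans chr11:36589775-36591114 (1340 bp). The widest RUNX1 peak of the 3 windows, on chr11:36587964-36589899 (1936 bp), entered it by 125 bp on one side. A RUNX1 peak at the minimum width of the list, on chr11:36590935-36591155 (221 bp), shared 180 bp with its other end. Together they covered 22.8% of the mark and left its middle free. RUNX1 over both edges and not over the midpoint was found at 83 of 13181 H3K4me3 peaks (0.63%), and overlap with 2 or more RUNX1 peaks at 8.06%. This layout was looked for after the positions had been seen.

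**Figure D3:**
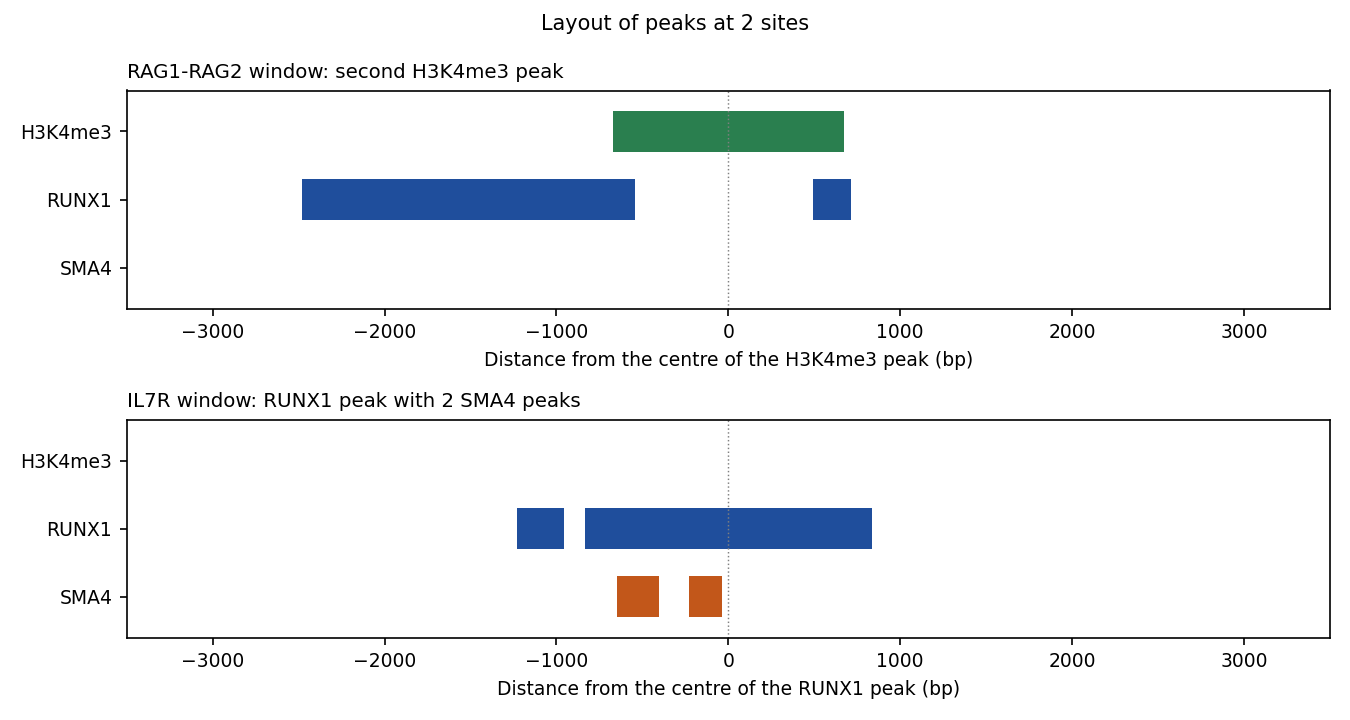
Peaks of the 3 lists around the second H3K4me3 peak of the RAG1-RAG2 window (above) and around the RUNX1 peak of the IL7R window that holds 2 SMA4 peaks (below), by distance in bp from the centre of that peak. RUNX1 peaks of 1936 and 221 bp overlap the ends of the mark and not its centre, and the SMA4 peaks of 243 and 191 bp lie in the same RUNX1 peak.

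The second group held the narrowest H3K4me3 peak of this window. It spans chr11:36619480-36619950 (471 bp) and lay entirely within a RUNX1 peak on chr11:36619275-36620184 (910 bp), with centres 14.5 bp apart. The other RUNX1 peaks of the group were 311, 640 and 226 bp wide and overlapped neither H3K4me3 nor SMA4. No H3K4me3 peak followed for 345 kb.

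The third group opened with a wide RUNX1 peak at whose end an SMA4 peak was found. The RUNX1 peak, on chr11:36640102-36641955, was 1854 bp wide, wider than 94.8% of the list. The SMA4 peak, on chr11:36641909-36642060 (152 bp), shared 47 bp with it, or 30.9% of its own width, so it does not count as overlapping where 50% of the shorter peak must be shared. The SMA4 peaks of the window were 61.2 kb apart. RUNX1 peaks of 244 and 828 bp closed the group, and no further RUNX1 peak followed for 60.5 kb.

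In the PTCRA window RUNX1 and H3K4me3 coincided at both marked sites and RUNX1 stood alone in between. At the start of the window a RUNX1 peak on chr6:42869126-42870756 (1631 bp) held 2 H3K4me3 peaks. These were chr6:42869422-42870196 (775 bp), which lay wholly in it, and chr6:42870568-42870777 (210 bp), of which it covered 90.0%. The RUNX1 peak and the first mark cross the limit of the window. They belong to a stretch of 6 H3K4me3 peaks that began outside it, at 42846822.

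The middle of the PTCRA window held RUNX1 without H3K4me3. These peaks were chr6:42879080-42879687 (608 bp) and chr6:42883264-42884738 (1475 bp), 8.3 and 11.8 kb from the nearest mark. The second was wider than 89.5% of the RUNX1 list. Toward the end of the window, RUNX1 on chr6:42896399-42898286 (1888 bp) met the widest H3K4me3 peak of the 3 windows, on chr6:42896500-42898571 (2072 bp). The RUNX1 peak shared 94.7% of its bases with the mark and the mark 86.2% with RUNX1. After it no H3K4me3 peak followed for 47.3 kb.

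All 4 RUNX1 peaks of the PTCRA window belonged to 1 joined region of 7 peaks, from 42847092 to 42898286 (51.2 kb). Regions with at least 7 peaks make up 2.03% of all RUNX1 regions. Joined across gaps of up to 5 kb instead, the window was reached by 3 regions, the richest with 2 peaks. The nearest SMA4 peak lay 11.2 kb before the window, on chr6:42858622-42858848 (227 bp), inside the same joined region, and none followed for 1990 kb after the window.

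In the IL7R window all 8 RUNX1 peaks lay outside H3K4me3. The nearest H3K4me3 peaks were 889 kb before the window and 166 kb after it, so a stretch of 1140 kb around IL7R had no peak of the mark. How often stretches this long occur in the genome was not counted. The H3K4me3 peak after it had the minimum width of its list, 179 bp. Over the whole list 32.2% of RUNX1 peaks overlapped H3K4me3.

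The RUNX1 peaks of the IL7R window reached from its start to its end, in 4 regions by the same joining distance, 1 of them a single peak. The first were chr5:35821866-35822086 (221 bp, the minimum width of the list), the adjoining chr5:35822318-35823467 (1150 bp), and a peak of 900 bp on chr5:35830521-35831420. They form 1 joined region with a peak before the window. A single RUNX1 peak of 472 bp stood on chr5:35856773-35857244, with gaps of 25352 bp before it and 21973 bp after it. It was the only one of the 8 left unjoined to any RUNX1 neighbour.

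SMA4 appeared at the widest RUNX1 peak of the IL7R window. This RUNX1 peak, on chr5:35884270-35885941, was 1672 bp wide, wider than 92.7% of the list, and contained both SMA4 peaks in full. They were chr5:35884458-35884700 (243 bp) and chr5:35884879-35885069 (191 bp), 178 bp apart, and both ended before the centre of the RUNX1 peak. At least 2 SMA4 peaks were found in 32 of 36736 RUNX1 peaks (0.0871%), or 3.4% of the 940 that held any. This layout too was looked for after it had been seen. RUNX1 peaks of 299 and 273 bp lay 4.94 and 0.31 kb from the nearest SMA4. The last RUNX1 peak, on chr5:35899742-35900517 (776 bp), crosses the end of the window. It opens a joined region of 5 RUNX1 peaks and 2 SMA4 peaks up to 35909298, most of it past the limit. That region held more peak sequence than 94.5% of RUNX1 regions. The region at the start of the window held more than 91.3%, and the one around the SMA4 peaks inside the window more than 84.8%.

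Over the 3 windows together, most RUNX1 peaks overlapped neither other target, at a share close to that of the whole list. Of the 24 RUNX1 peaks, 6 overlapped H3K4me3 alone, 3 overlapped SMA4 alone, none overlapped both and 15 (62.5%) overlapped neither, against 66.1% with neither in the whole list. In that list 337 of 36736 RUNX1 peaks overlapped both, so 24 peaks are too few to show more or less of that class. RUNX1 overlap with H3K4me3 was seen at 4 of 12 peaks in the RAG1-RAG2 window, 2 of 4 in the PTCRA window and 0 of 8 in the IL7R window, against 32.2% of the list. RUNX1 overlap with SMA4 was seen at 2 of 12 peaks in the RAG1-RAG2 window, 0 of 4 in the PTCRA window and 1 of 8 in the IL7R window, against 2.56% of the list. The IL7R window holds no H3K4me3 peak and the PTCRA window no SMA4 peak, so those 0 counts follow from these absences.

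Seen from the other lists, each member had RUNX1 beside it. All 6 H3K4me3 peaks overlapped RUNX1, against 88.1% of that list, and none overlapped SMA4, against 2.39%. All 4 SMA4 peaks overlapped RUNX1, against 65.9% of that list, and none overlapped H3K4me3, against 21.8%. SMA4 peaks with RUNX1 and without H3K4me3 make up 44.9% of their list. With 6 and 4 members, a difference from the shares of the lists cannot be told.

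RUNX1 peaks in the windows spanned nearly the whole range of common widths. Their widths were 221 bp at the lowest, 802 bp at the median and 1936 bp at the highest, against a median of 645 bp in the list. By window the median was 734 bp for RAG1-RAG2, 1553 bp for PTCRA and 624 bp for IL7R. Of the 24, 9 were over 1000 bp, against 26.2% of the list, and 6 were under 300 bp, against 16.7%. The widest ranked 1621st of 36736. The 3 RUNX1 peaks with SMA4 were 1121, 1854 and 1672 bp wide, all above the median of the list, as were 736 of the 940 RUNX1 peaks with SMA4 in the whole list (78.3%). A wider peak also meets another more readily.

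H3K4me3 peaks of the windows were of ordinary width for their list and SMA4 peaks ranged from narrow to wide. The 6 H3K4me3 peaks ranged from 210 to 2072 bp, against a list median of 938 bp, with 3 of 6 above it. The 4 SMA4 peaks ranged from 152 to 465 bp, against a list median of 219 bp, with 2 of 4 above it. The SMA4 peak of 152 bp was wider than 8.88% of its list.

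**Figure D4:**
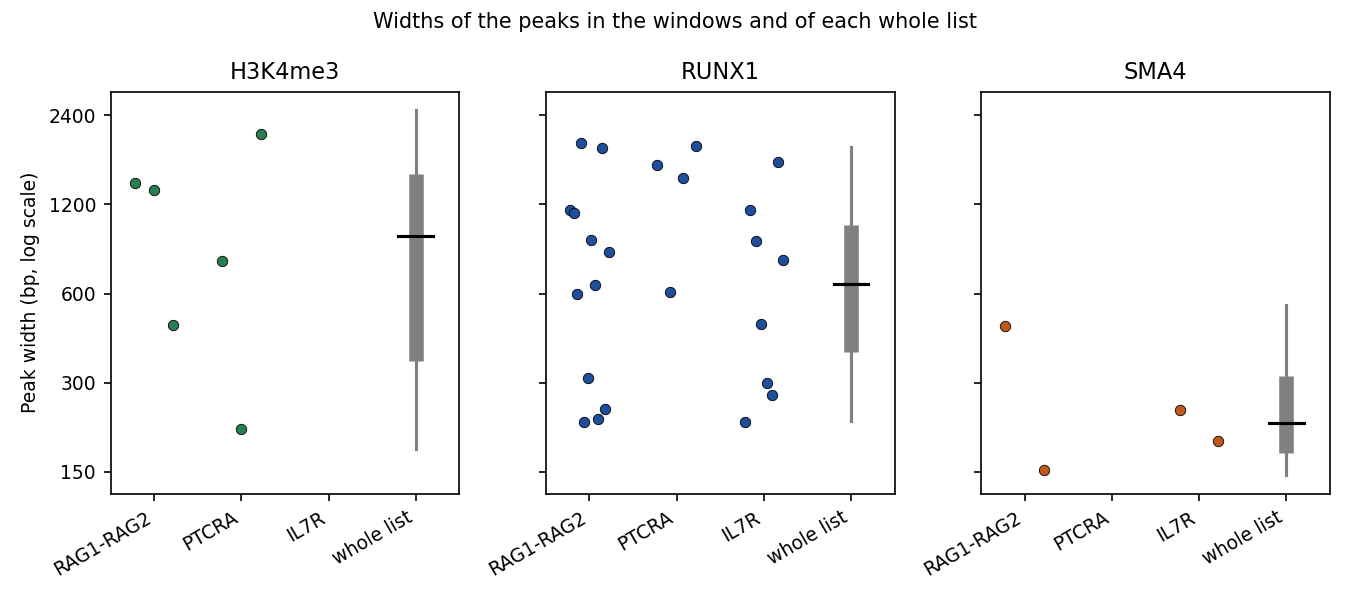
Width in bp (log scale) of every peak in the RAG1-RAG2, PTCRA and IL7R windows, 1 point per peak, beside the whole list (black line, median; thick bar, quartiles; thin line, 5th to 95th percentile). The 24 RUNX1 points run from 221 to 1936 bp, whereas the 6 H3K4me3 and 4 SMA4 points are too few to show a spread.

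Peaks just beyond the limits show how the window rule bears on these counts. After the RAG1-RAG2 window, 5.26 kb past its end, a RUNX1 peak of 2181 bp on chr11:36705263-36707443 contained an SMA4 peak of 768 bp on chr11:36706326-36707093. That SMA4 peak ranks 16th by width of 1475, and the RUNX1 peak is wider than any RUNX1 member. After the IL7R window, 1.08 kb past its end, a RUNX1 peak of 923 bp on chr5:35901085-35902007 contained an SMA4 peak of 148 bp on chr5:35901220-35901367. Neither of these RUNX1 peaks overlapped H3K4me3. Before the RAG1-RAG2 window the nearest SMA4 peak was 4080 kb away.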

How the data were processed

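CUT&RUN libraries of MOLT-4 cells for H3K4me3, RUNX1 and SMA4 were analysed, 1 library each. The 2 samples titled as Input were not used here. The authors deposited 1 peak list per library with 4 columns (chromosome, start, end and name) and no score, fold or depth. Per the file headers, MACS2 called the H3K4me3 and RUNX1 peaks, and cutruntools the SMA4 peaks at a q threshold of 0.01. The build was hg19, per the submitters' processing notes, which also list SEACR without a role; aligner and versions: not given in the sources used here. How many peaks a list holds follows from those thresholds, so counts are read within a list.

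Starts were made 1-based and chromosomes 1 to 22 and X kept. Overlap means at least 1 bp, tiles are non-overlapping, and regions join peaks of a list at ROSE's default stitching distance. Width percentiles are the percent of the list that is narrower. All H3K4me3 and SMA4 peaks, and the RUNX1 peaks that overlap them or are the widest 3, first or last of a window, were named by rule; other RUNX1 peaks were added after their values were seen. Motifs were searched in the 250 upstream bases of the RefSeq promoter table. The planned list of other thymocyte genes needs an hg19 annotation and was not run. Windows, members and rules were chosen with earlier results of these data known. Python 3.11.15, pandas 2.3.3 and numpy 2.4.6 were used, and the overlap, joining and tiling steps were tested on simulated peaks. Alternatives changed the window limits, peak set, overlap, tiles and joining distance.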

Additional observations from a re-analysis of the deposited data

How the results depend on the processing

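Of 92 alternative values for counts, tile shares, overlaps and joined regions, 26 moved by more than 1.5 times or away from 0. None of the 68 alternative width percentiles moved so when ranked within a chromosome or after merging peaks within 100 bp. Merging could join no member, because the smallest gap between a member and a neighbour of its list was 122 bp. Counting peaks by midpoint or only when whole in the window, merging, shifting the tiles and counting peaks within 1 kb as overlapping moved no count by more than 1.5 times. Bases in peaks moved in 8 of 18 alternative values, 7 of them under widening, which also enlarges the window. Widening each window by 50 kb on each side gave 20 RUNX1 peaks for RAG1-RAG2, 9 RUNX1, 9 H3K4me3 and 1 SMA4 peak for PTCRA, and 16 RUNX1 and 4 SMA4 peaks for IL7R. H3K4me3 stayed at 0 for IL7R, whereas SMA4 was then no longer absent for PTCRA. A stricter threshold could not be applied without scores, so the wider 50% of each list was kept instead. This drops about 50% of every list by construction, so lower counts are built into it. It gave 10 of the 26 moved values. Whether width follows peak strength is not known here. RUNX1 then fell to 6 peaks in RAG1-RAG2 and 4 in IL7R. H3K4me3 fell to 1 in PTCRA, and SMA4 to 1 each in RAG1-RAG2 and IL7R. RUNX1 peaks at H3K4me3 were then 2 in RAG1-RAG2 and 1 in PTCRA, H3K4me3 peaks at RUNX1 were 1 in PTCRA, and SMA4 peaks at RUNX1 were 1 each in RAG1-RAG2 and IL7R. When peaks had to share 50% of the shorter one, 1 SMA4 peak of RAG1-RAG2 overlapped RUNX1. Among only the tiles with a peak of any list, the share with as many peaks as the window was 4.74%, 10.5% and 3.78% for RUNX1 (RAG1-RAG2, PTCRA, IL7R), 19.4% and 4.33% for H3K4me3 (RAG1-RAG2, PTCRA), and 2.41% and 1.25% for SMA4 (RAG1-RAG2, IL7R). Joining peaks within 5 kb gave 3 regions for PTCRA, the richest with 2 peaks. No paired analysis was possible because each antibody had 1 library. Depth is unknown, so a missing peak sets no limit on binding.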
